A study of Homo sapiens with 32 samples.

Results

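Heat-shock protein genes, 10 of the 64449 genes annotated in the human genome, were followed through the iCLIP libraries of Alyref, Chtop, Nxf1 and a Control. They were taken by name: 8 spliced genes (HSPA8, HSP90AA1, HSP90AB1, HSPA5, HSPA9, HSPD1, HSPA4 and HSPH1) and 2 intronless genes (HSPA1A and HSPA1B). iCLIP crosslinks protein to RNA with UV light in living cells, and the base just before each cDNA marks the contact. A tag is 1 such cDNA, after copies sharing a random barcode were merged. All tags on the gene's strand between its GRCh37 (hg19) ends were counted, and the tags in exons of its canonical transcript were counted apart.

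Each protein was FLAG-tagged and made from a tetracycline-inducible locus in FlpIn-293 cells, given in the labels as HEK293T, a human embryonic kidney line that accepts a transgene at a fixed recombination site. Induction lasted 48 h, with 10 ng/mL tetracycline for Alyref and Chtop and 5 ng/mL for Nxf1, and the Control cells carried the FLAG tag alone, with no dose given for them in the labels. The proteins purified were therefore induced, tagged copies present beside the cells' own. There were 12 libraries, 3 per group, and nothing in the labels says that they came from separate cultures, so p-values measure the spread between these libraries.

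Heat-shock proteins are chaperones, which hold or refold other proteins. Many are made constantly, while HSPA1A and HSPA1B are the classical stress-inducible HSP70 genes. Spliced mRNAs are thought to load the export complex TREX, with its subunits Alyref and Chtop, in connection with splicing and the cap, and to pass through Nxf1, the export receptor. HSPA1A and HSPA1B have no introns, so that their mRNAs must be exported without splicing, and their coding sequences are nearly the same.

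Library totals ran from 7017 to 631704 tags, and the 10 genes held between 0.0369% and 0.112% of a library. Alyref libraries gave 1141 member tags in sum, Chtop libraries 607, Nxf1 libraries 269 and Control libraries 63. Nxf1 replicate 1 had 3 member tags and Control replicate 1 had 5, so their values rest on single tags. Tag counts follow both the binding and the amount of an RNA, and as RNA levels were not measured here these cannot be told apart. Tags scaled to the size of their library are given as CPM. A count of 0 allows up to 4.75 CPM in Alyref replicate 2 but up to 428 in Control replicate 1, and such limits cover counting error only. Genes known to be active in HEK293T were tagged in exons, among them IGF2BP1 with 500 tags, VIM with 204 and LIN28B with 63, whereas NEFM had 1. The leukocyte gene PTPRC and the hepatocyte gene ALB had 1 tag each, HBB had 12 and the fibroblast gene COL1A1 had 43.

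The intronless pair is shown in sequence first, because the position of its tags turned on it. HSPA1A (ENSG00000204389, chr6:31783320-31785723, + strand) has 1 exon of 2400 nt in its canonical transcript. HSPA1B (ENSG00000204388, chr6:31795515-31798031, + strand) has 1 exon of 2517 nt. When the transcripts were aligned, the coding sequences matched at 99.8% of 1923 columns with 4 mismatches. The 5′ UTRs matched at 87.9% of columns and the 3′ UTRs at 48.8%. The 30 nt that a read would cover after a base of the HSPA1B 5′ UTR (base 31795630, 4 tags in 3 libraries) are given with the aligned bases of HSPA1A, and capitals mark the bases that differ.
HSPA1A 5′ UTR, chr6:31783435-31783464 (+): tttccggcgtCcGgaaggacCgagctcttC
HSPA1B 5′ UTR, chr6:31795631-31795660 (+): tttccggcgtTcCgaaggacTgagctcttG
The 30 nt after base 31784117 of HSPA1A, in the coding sequence, had no capitals because no base differed.
HSPA1A coding sequence, chr6:31784118-31784147 (+): gctcatctttgacctgggcgggggcacctt
HSPA1B coding sequence, chr6:31796312-31796341 (+): gctcatctttgacctgggcgggggcacctt
A read of the first pair can be placed in 1 gene, and a read of the second pair matches both. The deposited tags came from uniquely aligned reads, so the share of each transcript at which an exact 30 nt read occurs once in the genome was computed.

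Such unique bases made up 23.9% of HSPA1A and 26.9% of HSPA1B, and they lay in the UTRs and the last stretch of the coding sequence. HSPA1B held 120 exonic tags over the 12 libraries, 119 of them at its 678 unique bases. The other 1839 bases of HSPA1B held 1 tag. HSPA1A held 1 tag, in Chtop replicate 3, and it lay in the shared coding sequence. The 574 unique bases of HSPA1A held 0 tags in every library, so the tags at bases that tell the genes apart were those of HSPA1B in all 4 groups.

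**Figure D1:**
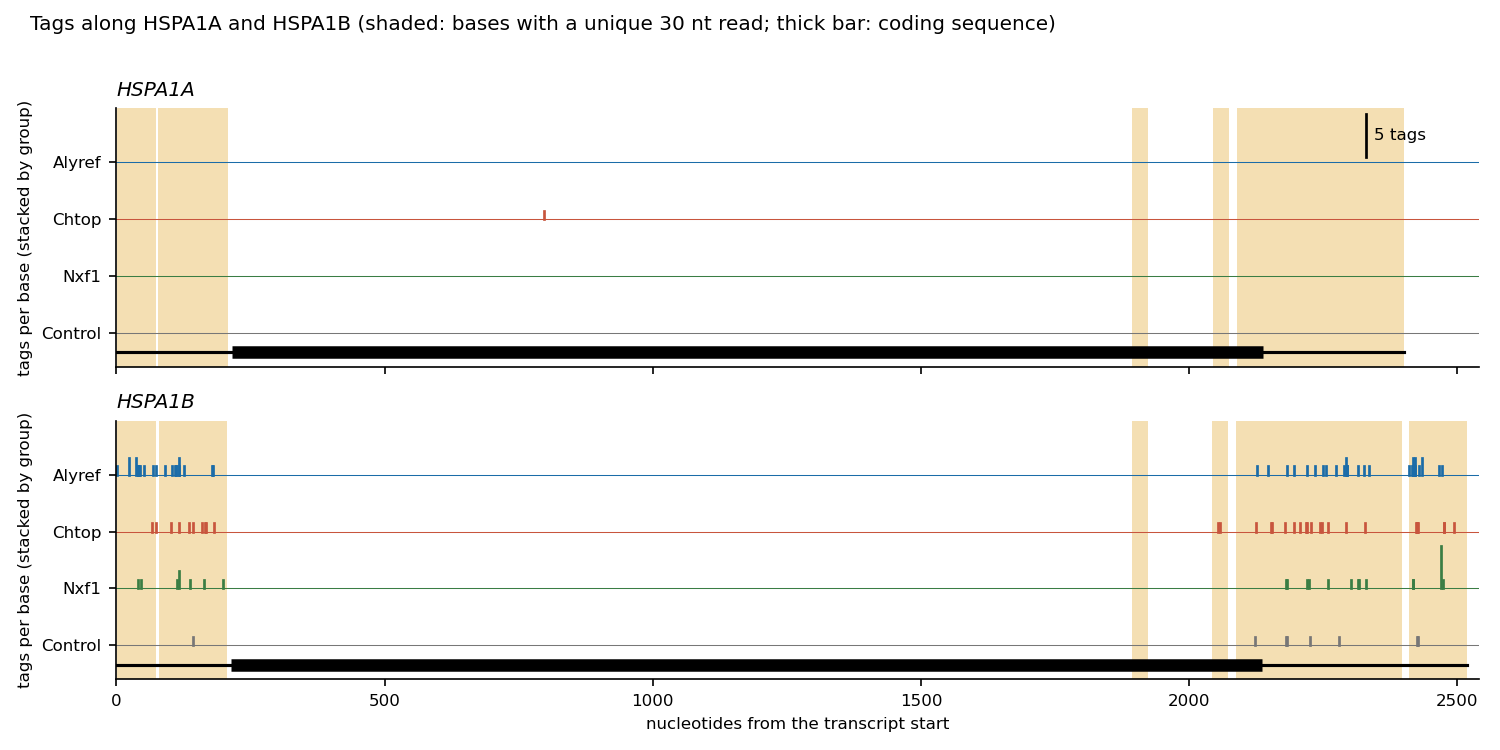
Tags at each base of HSPA1A (top) and HSPA1B (bottom) against the distance from the transcript start in nucleotides, with 1 row per group pooled over 3 libraries, line heights giving tags per base (scale line, 5 tags), shaded bases having a unique 30 nt read and the thick bar marking the coding sequence. HSPA1B carries 119 of 120 tags in shaded sequence and HSPA1A carries 1 tag in all.

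Within HSPA1B, tags fell on both ends. The 201 unique bases of the 5′ UTR held 23 Alyref tags, 10 Chtop tags, 8 Nxf1 tags and 1 Control tag. The 368 unique bases of the 3′ UTR held 29 Alyref tags, 20 Chtop tags, 17 Nxf1 tags and 6 Control tags. The 5′ share of these tags was 44.2% in Alyref (exact 95% interval 30.5% to 58.7%), 33.3% in Chtop (17.3% to 52.8%), 32.0% in Nxf1 (15.0% to 53.5%) and 14.3% in the Control (0.361% to 57.9%). These intervals overlap, so a difference in position between groups was not detectable at this depth. What lay along the coding sequence between could not be read for either gene.

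HSPA1B was tagged at 93 bases, of which 19 (20.4%) recurred in another library. The share was 15.8% in HSPA8, 13.3% in HSP90AA1 and at most 7.54% in the other genes. Over all 10 genes, HSPA1B included, it was 8.81% of 1839 tagged bases. Almost all HSPA1B tags fell on its 678 unique bases, and the shares were not adjusted for the number of bases open to tags. The most tagged base, 31797984 in the 3′ UTR, had 5 tags, all in Nxf1 replicate 3. Its 21 nt window, with the crosslinked base in capitals, lies in the stretch near the transcript end.
HSPA1B 3′ UTR, chr6:31797974-31797994 (+): ggaatgtatgTttttataatt
Tags were also counted past the gene. In the 2000 nt after the HSPA1B transcript, Nxf1 replicate 3 had 10 tags, Control replicate 3 had 4 and the other libraries had 0 to 4. These counts are not scaled to depth. The whole library held 179346 tags in Nxf1 replicate 3 and 36978 in Control replicate 3, so the Control library had the larger share there. Alyref had 5 such tags beside 54 in the transcript, Chtop 4 beside 33, Nxf1 11 beside 25 and the Control 6 beside 8. The 9 other genes together had 19 tags in such windows. A lncRNA gene is annotated on the same strand across the end of HSPA1B, so tags there cannot be assigned to 1 of the transcripts. When only tags in 1 gene were counted, HSPA1B fell under the filter. Its levels, tests and ratios therefore include tags shared with another annotated gene.

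The levels of HSPA1B in gene body tags were 36.9, 42.7 and 39.8 CPM in the Alyref libraries. They were 21.3, 22.3 and 46.6 in Chtop, 123, 67.1 and 89.2 in Nxf1, and 143, 107 and 54.1 in the Control. Every Nxf1 library and every Control library was therefore above every Alyref and Chtop library, while Nxf1 and the Control overlapped. Nxf1 replicate 1 and Control replicate 1 rest on 1 tag each and Control replicate 3 on 2. How many of all genes separate in this way is not given here. In edgeR's quasi-likelihood test over the 12 libraries HSPA1B differed from the Control by -1.21 ± 0.75 (log2, SE) in Alyref (adjusted p = 0.428), by -1.43 ± 0.78 in Chtop (adjusted p = 0.2) and by 0.08 ± 0.75 in Nxf1 (adjusted p = 0.985). None of these passed the threshold of 0.05. With exonic tags alone, Chtop against the Control was -2.73 ± 0.85 (adjusted p = 0.0399, edgeR) and Alyref was -2.00 ± 0.80 (adjusted p = 0.197, edgeR). The density, in CPM per kb of exon, was 8.44, 8.85 and 18.5 in the Chtop libraries, from 1, 12 and 20 tags. It was 56.6, 42.6 and 21.5 in the Control libraries, from 1, 5 and 2 tags. These values did not overlap, but they rest on few Control tags. With a looser filter of 10 tags in all, the Chtop difference on exonic tags was -1.39 ± 0.78 (adjusted p = 0.264, edgeR). HSPA1B has 1 exon that spans its gene body, so the gene body and exonic tests used the same HSPA1B tags. These tests differ in the genes fitted and in the scaling, so the exonic call is not a separate measurement of HSPA1B. Over all genes the exonic share of tags was 27.1% ± 14.8 (SD, n = 3) in the Control and 66.0% ± 8.04 in Chtop. The part of this in the scaling was not tested.

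Between the intronless and the spliced genes, the comparison was made as a density. Exonic tags per kb of HSPA1A and HSPA1B summed were divided by those of the 8 spliced genes summed, on a log2 scale, and the ratio is a description with no test. In Alyref the ratio was -1.23, -1.39 and -1.25, and in Chtop -2.04, -1.63 and -0.77, so the intronless pair was less densely tagged in all 6 libraries. In Nxf1 it was 1.54, -1.04 and 0.18, and in the Control 2.54, 0.86 and 0.96. Alyref had a mean of -1.29 ± 0.085, Chtop of -1.48 ± 0.648, Nxf1 of 0.23 ± 1.29 and the Control of 1.45 ± 0.943 (SD, n = 3). The Control thus lay above Alyref and Chtop in every library, and the Nxf1 libraries overlapped those of the Control and of Chtop. Nxf1 replicate 1 gave this value from 1 intronless and 2 spliced tags, and Control replicate 1 from 1 and 1. Without them the means were -0.43 for Nxf1 and 0.91 for the Control.

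The means of Alyref and Chtop changed their side of 0 once the shared sequence was left out, while those of Nxf1 and the Control stayed above 0. At bases with a unique 30 nt read the mean ratio reached 0.64 ± 0.155 in Alyref, 0.42 ± 0.714 in Chtop, 2.10 ± 1.06 in Nxf1 and 3.28 ± 0.716 in the Control. The factors kept their order below the Control. Alyref had 53 intronless and 576 spliced tags behind it, Chtop 33 and 332, Nxf1 25 and 131, and the Control 8 and 17. As a share of tags at unique bases, the intronless genes took 8.43% of Alyref (exact 95% interval 6.38% to 10.9%), 9.04% of Chtop (6.31% to 12.5%), 16% of Nxf1 (10.6% to 22.7%) and 32.0% of the Control (15.0% to 53.5%).

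Other intronless genes did not share this order. Over 993 single-exon protein-coding genes and 18788 multi-exon ones, with histone and heat-shock genes left out, the same whole-exon ratio was -1.93 ± 0.11 in Alyref, -0.96 ± 0.133 in Chtop, -0.93 ± 0.108 in Nxf1 and -0.98 ± 0.654 in the Control (SD, n = 3). Alyref was the lowest of the 4 groups there, whereas among the heat-shock genes the Alyref and Chtop libraries overlapped. The difference between the sets was not tested.

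**Figure D2:**
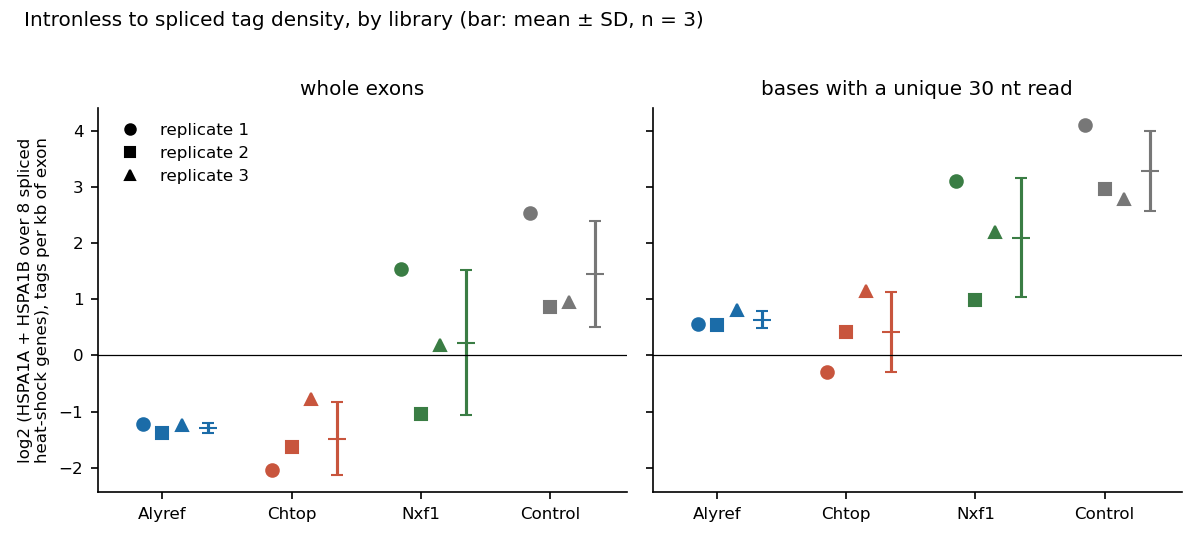
Log2 ratio of tags per kb of exon, HSPA1A and HSPA1B over 8 spliced heat-shock genes, for each of 12 libraries by group, over whole exons (left) and over bases with a unique 30 nt read (right), with bars for the mean ± SD of 3 libraries. Alyref and Chtop lie under 0 on the left and the group means rise to 0.64 and 0.42 on the right, below the Control in both panels.

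The spliced genes were taken by role. HSPA8, the constitutive HSP70 of the cytosol, lies at chr11:122928197-122933938 on the minus strand and has 9 exons. Its CPM was 36.9, 138 and 103 in Alyref, 63.8, 81.7 and 41.9 in Chtop, 0, 67.1 and 89.2 in Nxf1, and 0, 214 and 135 in the Control. The groups overlapped, and Control replicate 2 was the highest library. Its introns hold the box C/D snoRNAs SNORD14C, SNORD14D and SNORD14E, small RNAs that are processed out of the intron and act on rRNA. These 3 snoRNAs and the base before each took 56 of 152 HSPA8 tags in Alyref (36.8%), 17 of 65 in Chtop (26.2%), 5 of 24 in Nxf1 (20.8%) and 11 of 15 in the Control (73.3%, exact 95% interval 44.9% to 92.2%).

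The most tagged base of HSPA8 was the base before the 5′ end of SNORD14E, at 122928870. It had 5 tags in Alyref, 1 in Nxf1 and 1 in the Control, and the base before SNORD14C had 3 in Alyref and 1 in Chtop. Both are shown with the tagged base in capitals, so that the letters after the capital are the first bases of the annotated snoRNA.
SNORD14E, chr11:122928860-122928880 (-): tcagtgtaggGtcacaatgat
SNORD14C, chr11:122930121-122930141 (-): cccaaggtgaCtcgctgtgat
A tag at such a base stands for a cDNA that begins at the annotated end of the snoRNA, unless it was placed by a deletion in the read. Whether such a base marks a protein contact was not tested.

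On gene body tags HSPA8 differed from the Control by -0.70 ± 0.55 in Alyref (adjusted p = 0.533, edgeR), -1.40 ± 0.59 in Chtop (adjusted p = 0.0964) and -0.88 ± 0.63 in Nxf1 (adjusted p = 0.774). On exonic tags with 10 tags in all, these became 0.85 ± 0.77 (adjusted p = 0.469), -0.04 ± 0.85 (adjusted p = 0.975) and 0.85 ± 0.86 (adjusted p = 0.653, edgeR). In exons of its canonical transcript the Control had 3 tags, beside 85 in Alyref, 44 in Chtop and 16 in Nxf1. The exonic tests instead used exons of any isoform, which cover 4849 nt of the 5742 nt gene body. Whether these exons take in the snoRNAs is not given here.

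The cytosolic HSP90 pair helps client proteins such as kinases to fold. HSP90AA1, the inducible HSP90, lies at chr14:102547079-102606036 on the minus strand, and its canonical transcript of 11 exons covers the part from 102547079 to 102553381. Its CPM was 160, 184 and 141 in Alyref, 106, 128 and 151 in Chtop, 0, 344 and 123 in Nxf1, and 143, 172 and 108 in the Control. The groups overlapped throughout. HSP90AB1, the constitutive HSP90 (chr6:44213903-44221625, + strand, 12 exons), had a CPM of 135, 101 and 106 in Alyref and 106, 66.8 and 65.2 in Chtop. It had 0, 109 and 61.3 in Nxf1, and 5 tags in the Control, all in replicate 2. Exons took 86.9% of the HSP90AA1 tags and 78.4% of the HSP90AB1 tags in Alyref.

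HSP90AA1 held the most tagged base among all 10 genes, 102547774 in the 3′ UTR (exon 11), with 5 tags in Alyref, 2 in Chtop, 2 in Nxf1 and 0 in the Control, over 4 libraries. The base before its transcript start, 102553382, had 4 tags, all in Alyref.
HSP90AA1 3′ UTR, chr14:102547764-102547784 (-): gatgttaactTtgtggtctaa
HSP90AA1 transcript start, chr14:102553372-102553392 (-): ggtggcgcgtCagttgcttca
The base before the transcript start was also tagged in Alyref for HSPA8, with 3 tags, and for HSP90AB1 and HSPA9, with 1 each. It held 0 tags for all 10 genes in Chtop, Nxf1 and the Control. A tag there likewise stands for a cDNA that begins at the annotated transcript start, unless placed by a deletion. Whether it marks a protein contact was not tested.

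The chaperones of the organelles included the genes called between Alyref and Chtop in the exonic test. HSPA9, the mitochondrial HSP70 (chr5:137889445-137911364, - strand, 17 exons), had a CPM of 73.8, 179 and 157 in Alyref, 191, 74.2 and 60.5 in Chtop, 246, 143 and 128 in Nxf1, and 0, 42.9 and 54.1 in the Control. Every factor library was above every Control library. The Control values rest on 0, 2 and 2 tags, for which counting error alone allowed up to 526, 155 and 195 CPM, and Nxf1 replicate 1 on 2 tags. Against the Control HSPA9 was not called in Alyref, Chtop or Nxf1 on gene body tags (adjusted p = 0.235, 0.506 and 0.612, edgeR). The share of all genes separated in this way is not given here. The Alyref and Chtop libraries overlapped, and replicate 1 of each rested on 6 and 9 tags. HSPD1, the mitochondrial chaperonin HSP60 (chr2:198351308-198381461, - strand, 12 exons), had 135, 117 and 118 in Alyref and 63.8, 74.2 and 83.8 in Chtop, so that these groups did not overlap. It had 0, 126 and 117 in Nxf1 and 143, 64.3 and 54.1 in the Control. For HSPD1 too, the share of all genes without overlap is not given here, and Chtop replicate 1 rests on 3 tags. HSPA5, the HSP70 of the endoplasmic reticulum (chr9:127997132-128003661, - strand, 8 exons), was thinly tagged, at 0, 22.2 and 24.9 in Alyref and 21.3, 18.6 and 21.0 in Chtop, while Nxf1 replicate 2 reached 109.

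HSPA9 differed between Alyref and Chtop by 0.88 ± 0.33 on gene body tags (adjusted p = 0.0706, edgeR), and HSPD1 by 0.55 ± 0.30 (adjusted p = 0.219). On exonic tags alone HSPA9 was 1.56 ± 0.29 higher in Alyref (adjusted p = 2.28e-04, edgeR) and HSPD1 was 1.07 ± 0.30 higher (adjusted p = 0.00836). HSPA1B, with the same tags in both tests, also moved, from 0.22 ± 0.54 to 0.72 ± 0.50 (adjusted p = 0.81 and 0.276, edgeR). How much of the rise in HSPA9 and HSPD1 came with the scaling was not tested. The exonic tests used exons of any isoform, and the densities that follow used those of the canonical transcript. For HSPD1 they were 32.9, 33.1 and 30.3 CPM per kb in Alyref and 9.47, 23.1 and 24.9 in Chtop, without overlap. The lowest, in Chtop replicate 1, rests on 1 tag, and the share of all genes without overlap is again not given. For HSPA9 they were 14, 32.7 and 26.0 in Alyref and 29, 8.85 and 12.7 in Chtop, and the groups overlapped. On exonic tags with the looser filter of 10 tags in all HSPA9 kept its call (1.34 ± 0.40, adjusted p = 0.0209, edgeR), beside 4.66% of all genes called higher there, and HSPD1 did not (0.94 ± 0.39, adjusted p = 0.116). The exonic calls of these genes were not recomputed without single libraries.

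The most tagged base of HSPA9, 137904723 in exon 5 of the coding sequence, had 2 tags in Alyref, 2 in Chtop and 1 in Nxf1. In Alyref the most tagged base of HSPA9 lay in the intronic snoRNA SNORD63, with 3 tags in 2 libraries, and that of HSPD1 lay in an intron, also with 3 tags in 2 libraries. In all of these the crosslinked base was a uridine, printed as T in the reference.
HSPA9 coding sequence, chr5:137904713-137904733 (-): atgttcccttTaaaattgtcc
SNORD63 in HSPA9, chr5:137896774-137896794 (-): atgatgtattTtattcaacac
HSPD1 intron, chr2:198359676-198359696 (-): agaatagtttTatgtatcata
Uridine took 49.6% of exonic member tags in Alyref (416 of 838), 56.3% in Chtop (272 of 483), 47.8% in Nxf1 (98 of 205) and 38.7% in the Control (12 of 31), where 25.7% of the exonic bases are T. The exact 95% interval of the Control (21.9% to 57.8%) held the values of all 3 factors.

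The HSP110 genes, nucleotide exchange factors for HSP70, had the longest transcripts of the 10. HSPA4 (chr5:132387705-132442141, + strand, 19 exons) had a CPM of 73.8, 116 and 81.2 in Alyref, 42.5, 74.2 and 76.8 in Chtop, 0, 101 and 106 in Nxf1, and 285, 150 and 0 in the Control. Of its 9 Control tags 7 were intronic. HSPH1 (chr13:31709110-31736525, - strand, 18 exons) had 36.9, 36.4 and 48.1 in Alyref, 85.0, 37.1 and 62.9 in Chtop, 0, 50.3 and 22.3 in Nxf1, and a single tag in the Control. The HSPA4 groups overlapped. For HSPH1 every Alyref and Chtop library lay above every Control library, and the Control values rest on that single tag. How many of all genes do so is not given here.

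**Figure D3:**
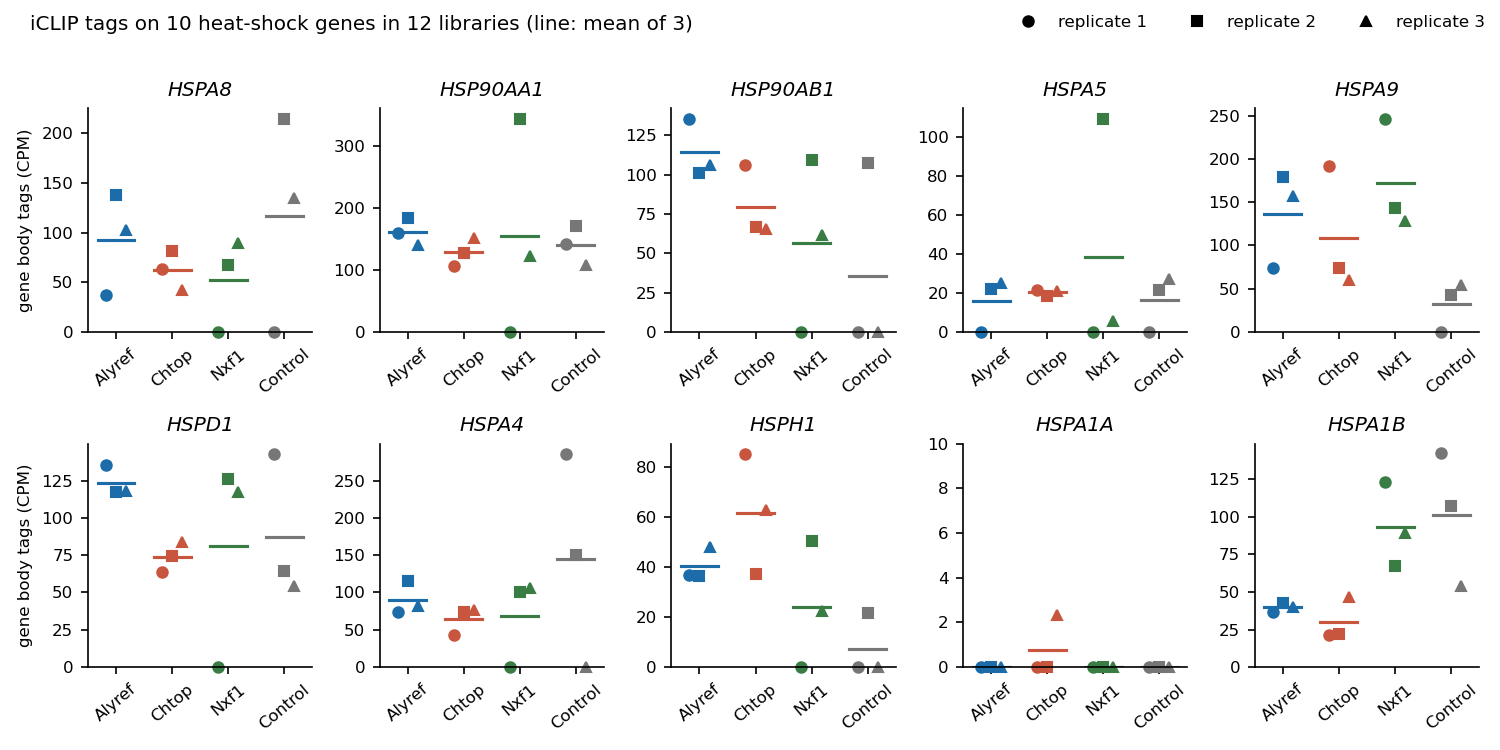
Gene body tags in CPM for each of 10 heat-shock genes (1 panel per gene, its own axis from 0) in 3 libraries per group, symbols giving the replicate and lines the mean. HSPA1B sits at 21.3 to 46.6 in Alyref and Chtop and at 54.1 to 143 in Nxf1 and the Control, and HSPA1A has 1 tag in all libraries.

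Levels were set against each other only per length and at bases with a unique read. In Alyref HSP90AA1 had 61.2 ± 24 CPM per unique kb, HSPA1B 57.9 ± 3.21 and HSPD1 54.8 ± 21.1 (SD, n = 3), and these did not separate. HSP90AB1 (44.4 ± 8.21), HSPA8 (35.3 ± 11.5) and HSPA9 (25.3 ± 9.14) followed, each overlapping its neighbour. HSPA9 lay above HSPA4 (13 ± 1.76), and HSPA4 above HSPA5 (4.41 ± 3.84) and HSPH1 (4.32 ± 1.70), without overlap. In Chtop the same genes led, with 49.2 ± 3.78 for HSP90AA1, 44.3 ± 21.1 for HSPA1B and 37.3 ± 7.38 for HSPD1, and every neighbour overlapped down to HSPA5. In Nxf1 HSPA1B came before HSP90AA1, at 137 ± 41.5 against 57.3 ± 59.7, and they overlapped. In the Control HSPA1B stood at 149 ± 65.7, above HSP90AA1 (22.3 ± 26.0) in every library. These 2 Control values rest on 8 and 5 tags.

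Tests over gene bodies were made for 3864 genes that passed edgeR's filter, and 7 of the 10 heat-shock genes were among them. HSPA5, HSPH1 and HSPA1A fell under the filter. Calls at an adjusted p under 0.05 were made for 0.0259% of genes in Alyref against the Control, 13.5% in Chtop against the Control, 0% in Nxf1 against the Control and 14.1% in Alyref against Chtop. Of the 7 genes, 0 were called in each of these 4 comparisons. At an unadjusted p under 0.05, 641, 1283, 292 and 1186 genes passed, among the heat-shock genes HSPA9 in 3 of the comparisons and HSPA8 in Chtop against the Control. DESeq2 gave no adjusted p for 7 of the 7 genes in Alyref against the Control and for 6 of the 7 in Chtop against the Control, and called 0 of those with one. The median log2 difference over the 7 genes was 0.07, -0.09, 0.70 and 0.55 in the same order, beside 0.23, 0.25, 0.17 and 0.02 over all genes tested. All 7 lay above 0 in Alyref against Chtop, and the share of all genes above 0 is not given here. With the looser filter of 10 tags in all, HSPA5 was at 0.01 ± 0.52 and HSPH1 at -0.42 ± 0.44 in this comparison. Over 15 tested genes from the list of other chaperone genes described below, the median was 0.51. Scaling with RLE size factors moved the median of all genes to 0.03, 0.08, 0.06 and -0.01.

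On exonic tags 1793 genes were tested, 4 of them heat-shock genes (HSP90AA1, HSPA9, HSPD1 and HSPA1B). In Alyref against Chtop 2 of the 4 were called higher, where 17.7% of all genes tested were. In Chtop against the Control 1 of the 4, HSPA1B, was called lower, beside 5.47% of all genes. Its tags were the same as in the gene body test, which gave no call. With 2.51% of all genes called in Alyref against the Control and 0% in Nxf1 against the Control, 0 of the 4 were. HSP90AA1 differed between Alyref and Chtop by 0.63 ± 0.29 (adjusted p = 0.0925, edgeR). These 4 had to be well tagged in exons to be tested, so they do not stand for all 10.

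**Figure D4:**
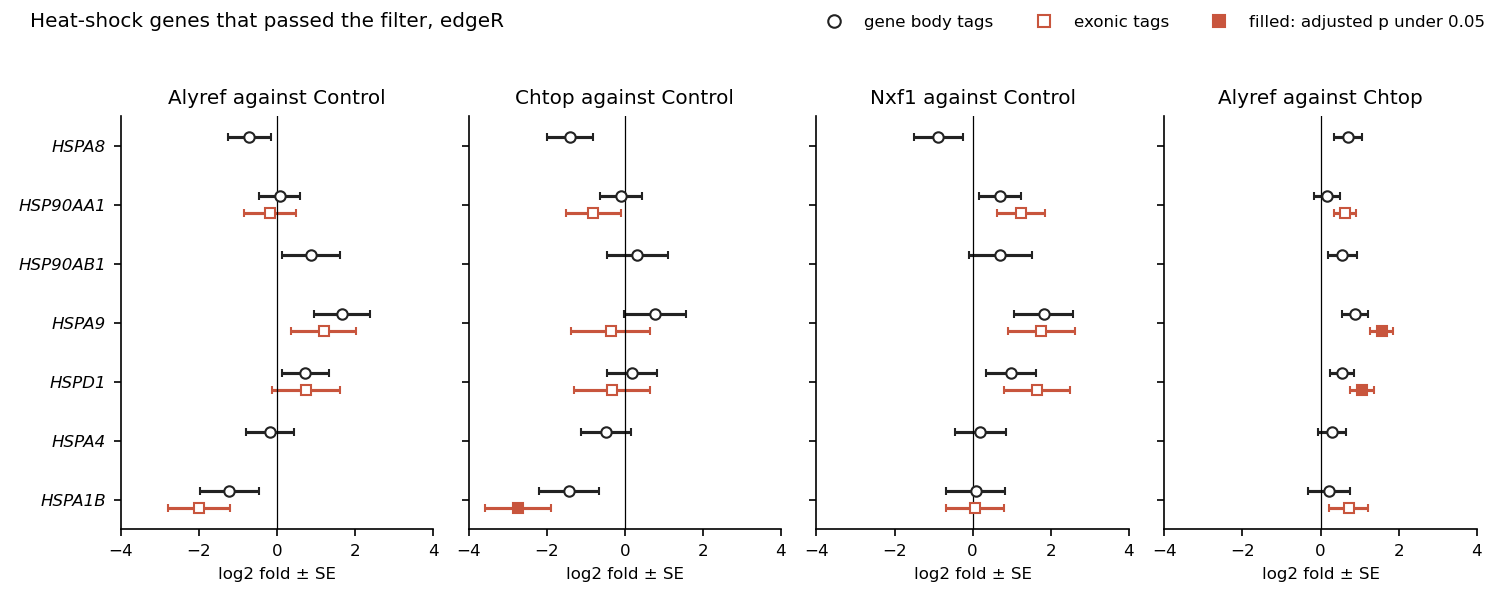
Log2 differences with SE from edgeR for the 7 heat-shock genes that passed the filter, in 4 comparisons, over gene body tags (circles) and exonic tags (squares, 4 genes), filled where the adjusted p was under 0.05. The filled points are HSPA1B in Chtop against the Control (-2.73) and HSPA9 (1.56) and HSPD1 (1.07) in Alyref against Chtop. For HSPA1B the circles and squares rest on the same tags.

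Along the spliced transcripts, Alyref tags were densest at the start. The first 10% of the transcript held 217 of 784 exonic Alyref tags (27.7%, exact 95% interval 24.6% to 31.0%). It held 18.3% of 449 Chtop tags (14.8% to 22.2%), 18.3% of 180 Nxf1 tags (13% to 24.8%) and 17.4% of 23 Control tags (4.95% to 38.8%). Tags pooled over libraries gave 49.6 CPM per kb in the first exons of Alyref, 25.7 in the middle exons and 10.8 in the last exons. In Chtop these densities were 25.2, 16.4 and 12.9. By library, the log2 ratio of last to first exons was -0.94, -2.45 and -2.04 in Alyref and -1.71, -0.65 and -1.13 in Chtop, so the libraries overlapped. In Nxf1 replicates 2 and 3 it was -2.13 and -0.35.

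**Figure D5:**
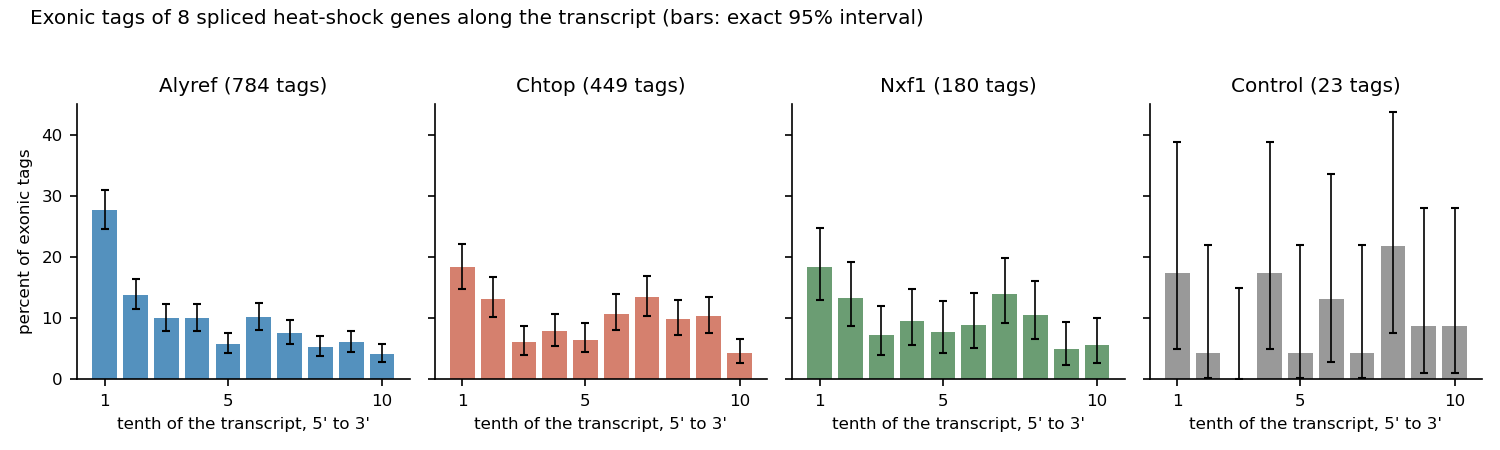
Percentage of exonic tags in each 10% of the transcript, 5′ to 3′, summed over 8 spliced heat-shock genes and 3 libraries per group, with exact 95% intervals that cover counting error only. The first 10% holds 27.7% of Alyref tags and 18.3% of Chtop and Nxf1 tags, and the Control rests on 23 tags.

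Of exonic tags on the 8 spliced genes, the 3′ UTR took 18.9% in Alyref (exact 95% interval 16.2% to 21.8%), 31.2% in Chtop (26.9% to 35.7%) and 25.6% in Nxf1 (19.4% to 32.6%). By library it was 20.6% ± 3.49 in Alyref and 30.6% ± 1.74 in Chtop, beside 28.7% ± 1.26 and 45.3% ± 1.91 over all protein-coding genes (SD, n = 3). The heat-shock genes were therefore lower in mean 3′ UTR share than all genes in both groups. The 5′ UTR took 10.3% ± 2.62 in Alyref and 9.36% ± 3.02 in Chtop, and the libraries of both groups overlapped. In HSPA9 the 5′ UTR held 24 Alyref tags and 3 Chtop tags, and the 3′ UTR held 28 and 20. In HSPA4 the 5′ UTR held 8 Alyref tags and 10 Chtop tags. In HSPH1 the 3′ UTR held 12 Alyref tags and 25 Chtop tags. Region usage within genes was tested for 885 regions in Alyref against Chtop, of which 2.71% were called, and no region of the 10 genes had enough tags to pass the filter. With 10 tags in all, 31 of their regions entered, 0.957% of 27595 regions were called and 0 of the 31 were. The 3′ UTR values nearest a call were HSPH1 with -0.74 (adjusted p = 0.439, edgeR) and HSPA4 with -0.87 (adjusted p = 0.488).

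Exons carried a larger mean share of the tags on the spliced heat-shock genes than on genes at large. The exonic share by library was 75.3% ± 2.03 in Alyref, 79.9% ± 8.04 in Chtop, 82.9% ± 15.2 in Nxf1 and 44.5% ± 10.7 in the Control. Over all protein-coding genes it was 53.4% ± 4.64, 66.0% ± 8.04, 43.3% ± 17.8 and 27.1% ± 14.8 (SD, n = 3). The snoRNA tags described for HSPA8 and HSPA9 count as intronic here.

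The window upstream of exon junctions was read at 63 internal junctions of the 8 genes. Of tags within 100 nt of a junction, those between -75 and -24 nt made up 31.9% in Alyref (132 of 414, exact 95% interval 27.4% to 36.6%), 22.6% in Chtop (43 of 190, 16.9% to 29.2%) and 25% in Nxf1 (19 of 76, 15.8% to 36.3%). By library it was 31.6%, 35.3% and 27.5% in Alyref, and 27.9% and 18.2% in Chtop replicates 2 and 3, where Chtop replicate 1 had 0 of 9 tags. These libraries overlapped. The Control had 1 of 8 tags there.

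Among 50 other genes of the chaperone system (heat-shock transcription factors, co-chaperones, the TRiC ring and ubiquitin genes), 15 passed the filter on gene body tags. In Alyref against Chtop 4 of the 15 were called higher, beside 5.15% of all genes, and 0 lower. They were TRAP1, the mitochondrial HSP90 (1.17 ± 0.28, adjusted p = 0.00579, edgeR), CCT2 (1.47 ± 0.36, adjusted p = 0.00656) and CCT8 (1.38 ± 0.36, adjusted p = 0.0108), subunits of TRiC, and SIL1, an exchange factor of HSPA5 (1.67 ± 0.42, adjusted p = 0.00815). In Chtop against the Control BAG6, which escorts unfolded proteins, was called higher (3.26 ± 1.04, adjusted p = 0.0366, edgeR), beside 9.24% of all genes, and SIL1 lower (-2.30 ± 0.63, adjusted p = 0.0196), beside 4.22%. Each of these calls was lost under some alternative. With DESeq2 the 4 in Alyref against Chtop had adjusted p from 0.0555 to 0.190. Leaving out Alyref replicate 2 or 3 or Chtop replicate 3 ended the calls of TRAP1 (adjusted p from 0.0699 to 0.124, edgeR), CCT8 (0.0862 to 0.123) and SIL1 (0.0730 to 0.173), and leaving out Chtop replicate 2 ended that of CCT2 (0.0617). The BAG6 call was lost with RLE size factors (adjusted p = 0.0504, edgeR), on exonic tags (0.326) and without any of the Control replicates (0.0580 to 0.135). BAG6 had 1 Control tag, in replicate 2, so the size of its fold is uncertain. The SIL1 call against the Control was lost without a filter (adjusted p = 0.109, edgeR), without Chtop replicate 3 (0.0772) and without Control replicate 2 (0.0793) or 3 (0.246). In each of the other comparisons 0 of the 15 were called. The stress-inducible genes HSPA6 and HSPB1 had 4 and 10 tags over all libraries, and HSP90B1, the HSP90 of the endoplasmic reticulum, had 751.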

How the data were processed

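The deposited files hold counts. Per the labels and the study's methods, the authors removed spike-in reads (Bowtie 1.1.2), moved random barcodes to read names (UMI-tools 0.5.3), aligned to hg19 keeping reads with 1 alignment (STAR 2.4.2a), merged the 32 lane runs into 12 libraries and merged duplicates by barcode. Each row gives a crosslinked base, its strand and its tag count. Reads from repeated sequence were thereby lost, which bears on HSPA1A and HSPA1B. The number of columns of per-sample values left unused was 0, and the files pooled by group were not used.

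Tags were assigned by strand with GENCODE release 44 on GRCh37. A tag in overlapping genes counted for each. Exons and regions were those of the canonical transcript, but those of any isoform in the exonic tests. A base was called unique when the 30 nt after it occurred once in the genome, by exact match, while the aligner allowed mismatches. HSPA1A and HSPA1B were aligned with Biopython 1.88. Gene counts were tested with edgeR 4.0.16 in R 4.3.3 (TMM, filterByExpr, quasi-likelihood, all 12 libraries in 1 fit, Benjamini-Hochberg over all genes tested). DESeq2 1.42.0 was an alternative. Tested on simulated data, edgeR recovered 66.5% of 200 genes changed 4-fold among 3864 in Alyref against the Control and 98.0% in Alyref against Chtop. For region usage 21.4% of 98 regions were recovered among 885.

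The 10 genes and the list of 50 chaperone genes were chosen with earlier results of these data known. Named were all 10 genes, their most tagged bases, the called chaperone genes with the smallest adjusted p and the genes of most similar profile. The fourth called chaperone gene, HSPA6, HSPB1, HSP90B1, SNORD tags and transcript-start bases were chosen after their values were seen. Replicate numbers coincide with lane sets, each of which holds 1 library per group. Over 18 pairs of same-numbered libraries, deviations from the group means correlated between -0.16 and 0.34, above 0.1 in 5, so the numbers were not taken to pair the libraries. Intervals are exact (Clopper-Pearson) and, like the limit of 3 tags for a count of 0, cover counting error only.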

Additional observations from a re-analysis of the deposited data

How the results depend on the processing

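The intronless to spliced density ratio depended on which bases were counted. In the order Alyref, Chtop, Nxf1 and Control, it was 0.64, 0.42, 2.10 and 3.28 at bases with a unique 30 nt read, 0.94, 0.77, 2.31 and 3.64 with 20 nt, 0.46, 0.24, 1.99 and 3.24 with 50 nt, and 1.16, 1.05, 2.82 and 2.87 over whole gene bodies. Merged exons of all isoforms gave -0.67 for Alyref and -0.82 for Chtop, and the mean over genes of log2 densities (0.5 tags added) gave -2.35 for Alyref. Without single libraries Alyref ran from -1.32 to -1.24, Chtop from -1.84 to -1.20, Nxf1 from -0.43 to 0.86 and the Control from 0.91 to 1.75. Counting each base once, leaving out HSPA8 or pooling the libraries, the last chosen after seeing the data, moved no group's mean by more than its SD.

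Genes called in Alyref against the Control (1) became 5 with RLE, 10 with DESeq2, 39 without a filter, 8 with tags in 1 gene only, 45 on exonic tags, 0 with each base counted once, 82 with the replicate block, and 0 to 96 without single libraries. In Chtop against the Control (520) they became 240 with DESeq2 and 154 on exonic tags, and 90 to 823 without single libraries. In Nxf1 against the Control (0) they became 1 with DESeq2, 1 without a filter, 2 with the replicate block, and 0 to 1 without single libraries. In Alyref against Chtop (543) they became 88 with DESeq2 and 292 without a filter, and 13 to 837 without single libraries. The regions called (24) became 8 with RLE, 49 with each base once, 14 with tags in 1 gene only, 2 with the replicate block and 0 to 194 without single libraries. With 10 tags in all, chosen after seeing the data, 71 genes were called in Alyref against the Control, 1 in Nxf1 against the Control and 264 regions, and with exonic tags also 185 genes in Alyref against the Control, 811 in Chtop against the Control and 1049 in Alyref against Chtop. The causes were not tested.

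For the 7 heat-shock genes, 469 of 507 alternative values with an adjusted p kept direction and side of the threshold. With tags in 1 gene only, HSPA8 and HSPA1B fell under the filter and have no value. HSPA9 in Alyref against Chtop was called with tags in 1 gene only (adjusted p = 0.0482, edgeR), with each base once (0.0457) and without Chtop replicate 1 (0.0165), but not with DESeq2. None of the values that changed sign passed the threshold. In Alyref against the Control HSP90AA1 was -0.12 with RLE, -0.17 on exonic tags, -0.0191 with each base once and -0.0249 to 0.46 without single libraries. HSPA4 was 0.44 without a filter, 0.29 with 10 tags in all and 1.77 on exonic tags with 10 in all, and -0.69 to 0.96 without single libraries, and HSPA8 was 0.85 on exonic tags with 10 in all. In Chtop against the Control HSP90AA1 was 0.42 without a filter, 0.38 with 10 tags in all, 0.52 on exonic tags with 10 in all and -0.23 to 0.26 without single libraries. HSPA9 was -0.36 and HSPD1 -0.32 on exonic tags, HSPA4 was 0.0377 without a filter, 1.21 on exonic tags with 10 in all and -0.91 to 0.64 without single libraries, and HSP90AB1 was -0.11 to 7.11 without single libraries. The highest of these came without Control replicate 2, which leaves the Control at 0 tags, so that its size depends on the prior count. In Nxf1 against the Control HSPA1B was -0.0307 with RLE, -0.24 with each base once and -0.0034 with the replicate block, HSPA8 was 0.85 on exonic tags with 10 in all, and without single libraries HSP90AA1 was -0.0462 to 1.04 and HSPA4 -0.30 to 1.31. In Alyref against Chtop HSP90AA1 was -0.00425 to 0.30 without single libraries. The replicate block changed no call of a heat-shock gene. Depth limits the Control most, with 63 tags on the 10 genes.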

Other observations

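Among 3512 protein-coding genes with at least 200 tags, the profile of log2 CPM over the 12 libraries was most like that of HSPA8 in NKAIN2 (Pearson r 0.888), MECOM (0.877) and EXOC4 (0.868). For HSPA1A and HSPA1B summed they were RSF1 (0.925), ZNF609 (0.873) and HERC4 (0.858). These are descriptions over 12 libraries of unequal depth, and the shallow replicates 1 set part of each profile.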
